A study of Mus musculus with 8 samples.

Results

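The genes described here are 40 genes of glucose metabolism, chosen by symbol from the 34478 genes of the deposited table. They cover the uptake of glucose and the release of lactate, glycolysis, the enzymes that set the pace of phosphofructokinase, pyruvate dehydrogenase with its kinases, the pentose phosphate pathway, the entry into the hexosamine pathway and 3 regulators. All 40 were found in the table, and 38 of them passed the filter for testing, a mean of at least 10 normalized counts over the 8 libraries. A normalized count is the number of reads assigned to a gene after the authors scaled the libraries to one another. The members are listed by name, without a limit on their values, in a list drawn up with earlier results of these data known.

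The libraries came from 4 primary cell lines of murine pancreatic ductal adenocarcinoma (PDAC), numbered #1, #3, #5 and #10 in the sample labels. All lines were established from tumor tissue of a genetically engineered mouse model, in which Cre expressed from the Ptf1a locus of pancreatic cells (Ptf1awt/Cre) deletes Trp53 (Trp53loxP/loxP). Both groups therefore share these alleles, and the lines of both had been established in high-glucose medium with serum. In each line 1 library was made from cells treated with the solvent DMSO and 1 from cells treated for 48 h with trametinib, an inhibitor of the kinase MEK, at the IC50 of that line. The ages of the mice and the doses are not given in the sources used here. As a check of the treatment, Dusp6 and Etv4, both transcribed in response to MEK-ERK signaling, had log2 fold changes of -2.51 and -5.92 (adjusted p = 0.00012 and 0.00020) and were lower in 4 of 4 lines.

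Glycolysis splits glucose into pyruvate, which is either reduced to lactate by lactate dehydrogenase and exported, or taken into mitochondria and oxidized by the pyruvate dehydrogenase complex. The pyruvate dehydrogenase kinases switch that complex off. The pentose phosphate pathway branches off after hexokinase and yields NADPH and ribose for nucleotides, and the hexosamine pathway branches off one step later and yields the sugar donor for glycosylation. In PDAC these routes are known to be controlled at the level of transcription, in part through MYC and HIF1A. RNA levels alone were measured here, so none of the values below is a flux or an enzyme activity. In such bulk RNA a lower value can come from fewer cells expressing a gene or from less of its RNA per cell, and these cannot be told apart.

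With trametinib, most of the abundant enzymes of glycolysis were lower, while 4 members of low or middle abundance were higher. Of the 38 members tested, 19 were lower and 4 were higher at an adjusted p under 0.05, and 15 were not called. The 4 higher members were the enolase gene Eno2, the kinase genes Pdk2 and Pdk4, and Pfkfb3, which makes the activator of phosphofructokinase. Among all 15888 genes tested, 25.6% were lower and 27.3% were higher, 53.0% in either direction. The median log2 fold change of the members was -0.47, and that of all genes tested was 0.07. The DMSO and trametinib values did not overlap in 14 members with lower and 3 members with higher values, against 16.2% and 15.1% of all genes tested. In 22 members the value was lower in every line and in 6 it was higher in every line, against 30.9% and 34.7% of all genes tested. With libraries scaled to equal totals 18 members were lower and 6 were higher, against 20.7% and 33.5% of all genes.

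**Figure D1:**
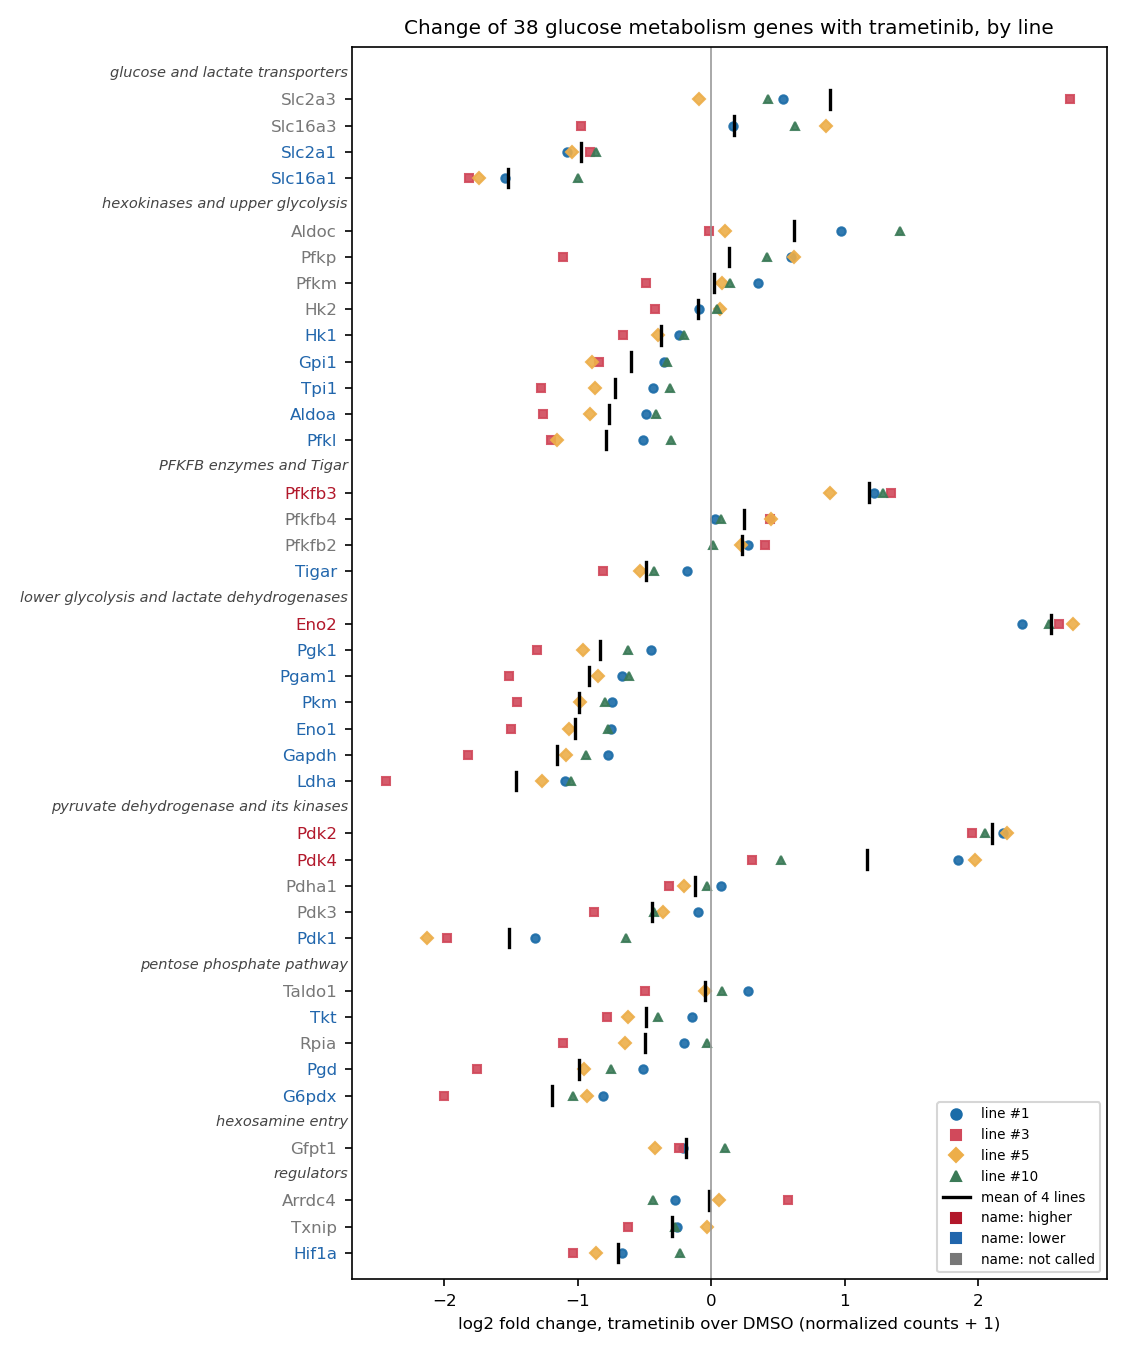
Log2 fold change (trametinib over DMSO, normalized counts plus 1) of the 38 members tested, in groups by role. Each symbol is 1 line, the black bar is the mean of the 4 lines, and the colour of a name gives its call in limma. The bars of Eno2 and Pdk2 lie above 2, those of Slc16a1, Pdk1 and Ldha lie near -1.5, and the squares of line #3 are often farthest to the left.

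The members called lower included nearly all of the abundant ones. Of the 15 members with a mean of at least 5000 normalized counts, 13 were lower (86.7%) and none was higher, with a median log2 fold change of -0.83. This limit was chosen after the values were seen. Of the 1441 other genes above the same limit 48.0% were lower and 21.8% were higher, with a median of -0.25. Together the 40 members held 1.57% ± 0.10 (SD, n = 4) of all normalized counts with DMSO and 0.937% ± 0.211 with trametinib. The trametinib share was 0.625% in line #3 and 1.00% to 1.09% in the other lines, and every trametinib library lay below every DMSO library.

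**Figure D2:**
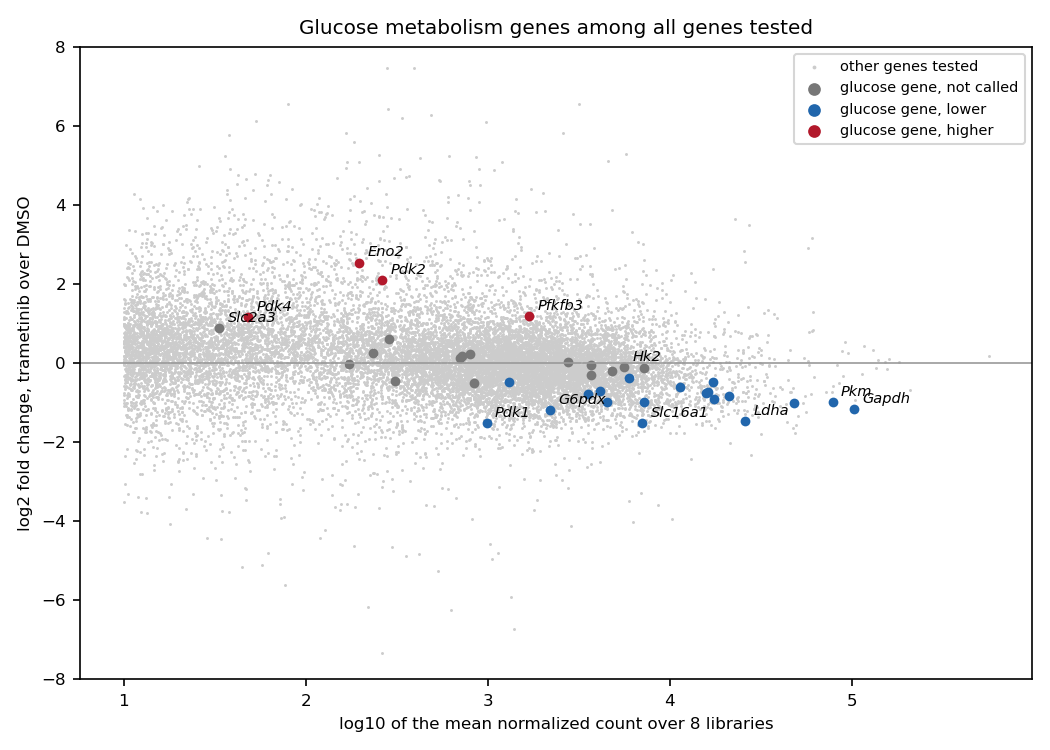
Log2 fold change against the log10 of the mean normalized count over 8 libraries, for the genes tested (grey dots) and the 38 members (large points, coloured by call). The called members to the right of 4 on the horizontal axis all lie below 0, and Eno2, Pdk2 and Pdk4, which were higher, lie to the left of 3.

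Line #3 stood apart from the other lines in these genes. Its log2 fold change was the lowest of the 4 lines in 28 of the 38 members, against 37.5% of all genes tested. The lowest value was in line #1 for 3 members, in line #5 for 5 and in line #10 for 2. The median over the members was -0.86 in line #3, -0.48 in line #5, -0.29 in line #10 and -0.23 in line #1, while the medians over all genes lay between 0.03 and 0.06. The changes of all genes were also spread more widely in line #3, with an SD of 1.40 against 1.05 to 1.15 in the other lines. Other genes with a mean of at least 5000 normalized counts were likewise lowest in line #3, with a median of -0.34 against -0.27 to -0.18. Of the ductal epithelial markers, Krt7, Krt8, Krt18, Krt19 and Sox9 also changed most in line #3 (-2.86 to -1.22). The part of these shifts in the members' values was not tested. Without line #3, 19 members were lower and 7 were higher, since Slc16a3, Pfkp and Aldoc then passed, against 25.5% and 26.7% of all genes tested, and the median over the members was -0.30.

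In the DMSO libraries the enzymes of lower glycolysis were the most abundant members. Per kilobase of transcript, Gapdh led with 98876 ± 14531 normalized counts (SD, n = 4), followed by Pkm, Eno1, Ldha and Pgk1. The per-kilobase levels of Gapdh and Pkm did not overlap between lines, and neither did those of Pkm and Eno1 or of Eno1 and Ldha. The next genes in that order, Pgk1, Aldoa, Pgam1 and Tpi1, lay between 12458 and 14611 normalized counts per kilobase on average, closer together than their spread over the lines. At the other end, among the 38 members tested, stood Eno2 at 20.1, Pdk4 at 8.13 and Slc2a3 at 3.74 normalized counts per kilobase. Eno2 and Pdk4, both called higher, were thus among the scarcest members tested with DMSO. Gfpt2 and Ldhb, both below the filter, were lower still, at 1.56 and 0.63.

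**Figure D3:**
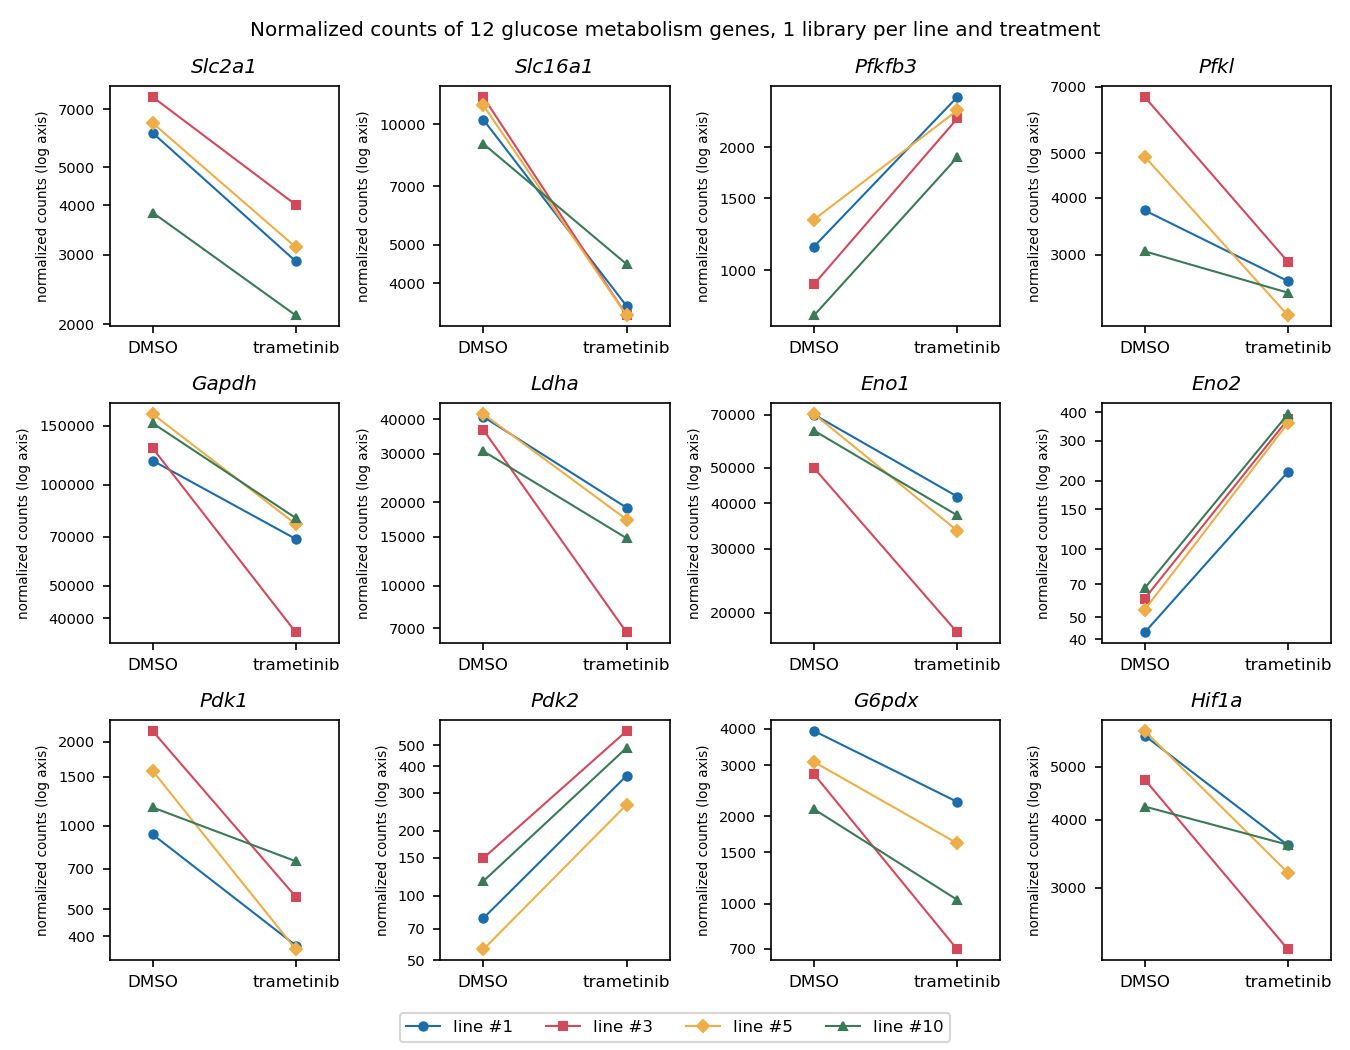
Normalized counts (log axis, a scale of its own in each panel) of 12 members with DMSO and with trametinib, with 1 point per library and a line joining the libraries of a cell line. The line of every cell line runs down in Slc2a1, Slc16a1, Pfkl, Gapdh, Ldha, Eno1, Pdk1, G6pdx and Hif1a, and up in Pfkfb3, Eno2 and Pdk2.

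The promoters of the members were searched for CACGTG, the E-box read by MYC and MAX and by MLXIP and MLX, and for ACGTG, the core of the hypoxia response element read by HIF1A and ARNT. ACGTG lies within CACGTG, so each E-box also counts as a match of the shorter motif. Windows of 250 bases before to 50 bases after the start were read from RefSeq (GRCm38.p6), on both strands, for the 39 members with an entry (56 promoters); Slc2a3 was not matched. CACGTG was found in 8 members, of which 3 were lower (Slc16a1, Ldha and Hif1a), 2 were higher (Pfkfb3 and Pdk2) and 3 were not called (Pfkm, Pfkfb2 and Arrdc4). It was found in 14.3% of the members' promoters and in 7.15% of all 32851 promoters. ACGTG was found in 22 members, in 46.4% of the members' promoters and in 19.6% of all promoters. All promoters include those of genes below the filter, and the share over the genes tested alone was not computed. These differences are therefore not read as particular to the members. Of these 22 members 11 were lower and 2 higher, and of all 39 matched members 19 were lower and 4 higher, beside 25.6% and 27.3% of all genes tested, so no link between the motif and a direction is read from these counts. CACGTG repeated after a gap of 5 bases was found in no promoter of the table. The 5 called members with an E-box are shown because they carry the same letters and moved in both directions. Each run gives the 250 bases before the start, 5′ to 3′ on the strand of the gene, with CACGTG in capitals:
Pfkfb3: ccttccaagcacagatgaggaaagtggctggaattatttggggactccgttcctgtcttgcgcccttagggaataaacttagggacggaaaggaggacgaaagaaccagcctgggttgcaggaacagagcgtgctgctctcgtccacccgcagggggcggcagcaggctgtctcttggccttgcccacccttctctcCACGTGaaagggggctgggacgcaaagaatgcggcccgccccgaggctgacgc
Pdk2: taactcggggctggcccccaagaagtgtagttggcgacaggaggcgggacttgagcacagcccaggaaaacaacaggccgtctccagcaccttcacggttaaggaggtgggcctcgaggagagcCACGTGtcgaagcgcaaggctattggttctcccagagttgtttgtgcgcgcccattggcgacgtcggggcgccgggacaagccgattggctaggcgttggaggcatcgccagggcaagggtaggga
Slc16a1: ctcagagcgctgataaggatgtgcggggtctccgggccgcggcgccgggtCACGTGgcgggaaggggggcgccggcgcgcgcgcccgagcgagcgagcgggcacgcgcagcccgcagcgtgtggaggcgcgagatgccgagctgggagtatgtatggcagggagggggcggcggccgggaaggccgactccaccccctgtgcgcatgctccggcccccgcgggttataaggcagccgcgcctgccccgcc
Ldha: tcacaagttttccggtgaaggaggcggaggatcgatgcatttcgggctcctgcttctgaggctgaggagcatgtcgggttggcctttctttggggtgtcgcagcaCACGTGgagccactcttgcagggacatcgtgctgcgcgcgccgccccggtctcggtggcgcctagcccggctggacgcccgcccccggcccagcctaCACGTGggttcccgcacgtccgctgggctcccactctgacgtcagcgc
Hif1a: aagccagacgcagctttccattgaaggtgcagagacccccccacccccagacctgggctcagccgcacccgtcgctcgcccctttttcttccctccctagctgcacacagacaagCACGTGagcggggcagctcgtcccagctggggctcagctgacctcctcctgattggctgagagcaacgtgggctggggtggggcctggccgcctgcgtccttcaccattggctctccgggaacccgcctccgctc
These windows lie on GRCm38.p6 at chr2:11502091-11502340 (minus strand) for Pfkfb3, chr11:95041372-95041621 (minus strand) for Pdk2, chr3:104638414-104638663 (plus strand) for Slc16a1, chr7:46845554-46845803 (plus strand) for Ldha and chr12:73907617-73907866 (plus strand) for Hif1a. The E-box of Pfkfb3 starts 53 bases before the start, that of Pdk2 126, that of Slc16a1 200 and that of Hif1a 135. Ldha holds 2, which start 145 and 48 bases before it. A member can have several starts. The windows shown for Pfkfb3, Ldha and Hif1a lie inside the positions of these genes given below, before a start within the gene. A match describes these letters and was not tested as a binding site.

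Among the transporter genes for glucose and for lactate, the more abundant gene of each pair had lower RNA levels. Slc2a1 encodes GLUT1, the basal glucose transporter, and Slc16a1 encodes MCT1, a carrier of lactate and pyruvate. Both were lower, and both fell in each line. For Slc16a1, on chromosome 3 from 104638668 to 104658462 (GRCm38, plus strand), the DMSO libraries gave 10259, 11685, 11142 and 8928 normalized counts in lines #1, #3, #5 and #10, and the trametinib libraries gave 3511, 3327, 3326 and 4466. The groups did not overlap, and line #10, the lowest with DMSO, was the highest with trametinib. Slc16a1 fell by 1.53 on the log2 scale (SE 0.14, adjusted p = 0.00049), a level 2.88-fold lower. The falls of Pdk1 and Ldha, given below, differed from it by less than their SEs. Slc2a1 fell by 0.98 (SE 0.08, adjusted p = 0.00036), from 6106, 7526, 6466 and 3836 to 2884, 4011, 3131 and 2104 normalized counts in the same order of lines. Its per-line changes lay between -1.08 and -0.87, so the overlap of its groups came from the different levels of the lines.

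The second transporter gene of each pair was not called. Slc2a3, which encodes the high-affinity transporter GLUT3, was scarce, with 5.69 to 24.7 normalized counts with DMSO and 7.99 to 164 with trametinib. Line #3 alone accounted for the highest value, and the log2 fold change of 0.89 (SE 0.50) was not called (adjusted p = 0.17). Slc16a3, which encodes MCT4, the lactate exporter of highly glycolytic cells, gave 184, 1946, 339 and 589 normalized counts with DMSO and 206, 986, 614 and 912 with trametinib. The change was thus -0.98 in line #3, and 0.86 and 0.63 in lines #5 and #10, on the log2 scale. Its mean change was 0.17 (adjusted p = 0.65), and 0.55 (adjusted p = 0.031) without line #3.

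In upper glycolysis 5 of 9 members were lower, against 25.6% of all genes tested, and none was higher, against 27.3%. The lower members were Hk1, Gpi1, Pfkl, Aldoa and Tpi1, which encode a hexokinase, glucose-6-phosphate isomerase, the liver-type phosphofructokinase, aldolase A and triosephosphate isomerase. The largest change was that of Pfkl, on chromosome 10 from 77986947 to 78010083, which gave 3752, 6643, 4920 and 3053 normalized counts with DMSO and 2626, 2894, 2209 and 2478 with trametinib. Its groups did not overlap, and it fell by 0.79 (SE 0.17, adjusted p = 0.0076). Line #3 held the most Pfkl RNA with DMSO and stayed the highest with trametinib. Aldoa, Tpi1 and Gpi1 fell by 0.77, 0.72 and 0.60 (adjusted p = 0.0060, 0.011 and 0.0073), each without overlap between the groups. The falls of Pfkl and Aldoa differed by less than their SEs. Without line #5 their order turned, with 0.67 for Pfkl and 0.72 for Aldoa. Tpi1 did not pass with quantile normalization (adjusted p = 0.062, the highest over its alternatives, of which the lowest was 0.0049).

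The hexokinases differed in their calls. Hk1 fell by 0.38 (SE 0.10, adjusted p = 0.019), but its groups overlapped and its adjusted p ran from 0.0062 to 0.22 over the alternatives, with 0.22 without the replicate block and 0.071 without line #5. Hk2, the isoform most often raised in tumors, had 4690 to 7723 normalized counts with DMSO and 3495 to 8101 with trametinib. Its log2 fold change of -0.10 (SE 0.11) was not called (adjusted p = 0.45), and its sign changed when the libraries were scaled to equal totals. The difference between the changes of the hexokinases was small, with a change of the log2 ratio of Hk2 to Hk1 of 0.28 ± 0.13 (SD, n = 4 lines).

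The other phosphofructokinase and aldolase genes were not called. Pfkp, the platelet type, gave 531, 1046, 707 and 426 normalized counts with DMSO and 804, 483, 1090 and 569 with trametinib. On the log2 scale its change was -1.11 in line #3 but 0.60, 0.62 and 0.42 in lines #1, #5 and #10. Its mean change was 0.13 (adjusted p = 0.73), and 0.55 (adjusted p = 0.0058) without line #3. Pfkm, the muscle type, had a change of 0.02 (adjusted p = 0.91). Aldoc, the brain-type aldolase, had a change of 0.62 (SE 0.27, adjusted p = 0.090), made up of 0.97 and 1.41 in lines #1 and #10 and of -0.02 and 0.10 in lines #3 and #5.

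The PFKFB enzymes make or remove fructose 2,6-bisphosphate, the strongest activator of phosphofructokinase, and Tigar removes it. Pfkfb3, whose product favours synthesis, rose, and Tigar fell. Pfkfb3, on chromosome 2 from 11471433 to 11554077, gave 1141, 923, 1330 and 774 normalized counts with DMSO and 2655, 2351, 2461 and 1889 with trametinib. The lowest trametinib library lay above the highest DMSO library. Pfkfb3 rose by 1.19 on the log2 scale (SE 0.11, adjusted p = 0.00042), 2.27-fold, with 0.89 in line #5 and 1.22 to 1.35 in the other lines. Tigar fell by 0.49 (SE 0.12, adjusted p = 0.013) with overlapping groups. Its adjusted p ran from 0.0044 to 0.12 over the alternatives, with 0.12 without the replicate block and 0.054 without line #5. Pfkfb2 and Pfkfb4 had changes of 0.23 and 0.25 and were not called (adjusted p = 0.11 and 0.21), although each was higher in all 4 lines. Pfkfb2 passed as higher with libraries scaled to equal totals (0.36, adjusted p = 0.027).

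In lower glycolysis 6 of the 7 members tested were lower, against 25.6% of all genes, and the other one, Eno2, had the largest rise among the members. Gapdh, Pgk1, Pgam1, Eno1 and Pkm encode the enzymes that take glyceraldehyde 3-phosphate to pyruvate, and Ldha encodes the subunit of lactate dehydrogenase that prevails in muscle and many tumors. Ldha, on chromosome 7 from 46841475 to 46855627, gave 40855, 36653, 41816 and 30668 normalized counts with DMSO and 19133, 6762, 17338 and 14834 with trametinib. It was lower in every line without overlap and fell by 1.46 (SE 0.23, adjusted p = 0.0025), 2.76-fold. Line #3 fell by 2.44 and the other lines by 1.05 to 1.27. Without line #3 the fall was 1.14 and Ldha was still called.

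The remaining lower members of this group changed by similar amounts. Gapdh, on chromosome 6 from 125161715 to 125166467, gave 117986, 128572, 162443 and 152612 normalized counts with DMSO and 68911, 36322, 76303 and 79513 with trametinib, and fell by 1.16 (SE 0.19, adjusted p = 0.0028). Gapdh is widely used as a reference gene for RNA measurements, and its level here was 2.23-fold lower. Eno1, Pkm and Pgam1 fell by 1.02, 0.99 and 0.91 (adjusted p = 0.0018, 0.0021 and 0.0035), each without overlap. Pgk1 fell by 0.83 (adjusted p = 0.0039), its groups overlapped, and it did not pass without the replicate block (adjusted p = 0.096, the highest over its alternatives, of which the lowest was 0.0017).

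Eno2, which encodes the enolase known from neurons, moved against Eno1. On chromosome 6 from 124760053 to 124769673, it gave 42.9, 60.4, 54.0 and 67.2 normalized counts with DMSO and 219, 374, 359 and 394 with trametinib. All trametinib libraries lay above all DMSO libraries, and the rise was of like size in the lines, from 2.33 to 2.71. The log2 fold change was 2.54 (SE 0.17, adjusted p = 0.00020), 5.83-fold. Even so, the log2 ratio of Eno2 to Eno1 stayed far below 0, at -10.64 to -9.67 with DMSO and at -7.56 to -5.56 with trametinib. Ldhb, the heart-type subunit, was below the filter. The DMSO libraries listed it at 1.97, 0, 0 and 1.33 normalized counts, below the value of 3 reads in each, and the trametinib libraries at 4.98, 11.1, 3.40 and 3.25.

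Among the 4 kinases of pyruvate dehydrogenase, all tested, 1 was lower and 2 were higher, beside 25.6% and 27.3% of all genes tested. Without the replicate block 1 was lower and 1 higher, beside 14.8% and 13.9% of all genes tested. Pdk1, on chromosome 2 from 71873224 to 71903858, a known target of HIF1A, gave 930, 2189, 1574 and 1163 normalized counts with DMSO and 371, 555, 359 and 745 with trametinib. It fell by 1.52 (SE 0.24, adjusted p = 0.0026), 2.86-fold, without overlap, least in line #10 with 0.64 and most in line #5 with 2.13. Pdk2, the widely expressed form, on chromosome 11 from 95026258 to 95041354, gave 78.4, 149, 56.2 and 117 normalized counts with DMSO and 361, 582, 265 and 486 with trametinib. It rose by 2.10 (SE 0.15, adjusted p = 0.00022), 4.30-fold, and kept the order of the lines. Pdk4, the form known to rise on fasting, gave 24.3, 25.7, 22.4 and 41.0 normalized counts with DMSO and 90.2, 32.0, 91.1 and 59.4 with trametinib. It was higher in 4 of 4 lines but the groups overlapped, and its log2 fold change was 1.16 (SE 0.37, adjusted p = 0.034).

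The call of Pdk4 rested on few lines. It rose by 1.85 and 1.98 in lines #1 and #5 and by 0.31 and 0.52 in lines #3 and #10, and was not called without line #1 (0.94, adjusted p = 0.13) or without line #5 (0.89, adjusted p = 0.13). Its adjusted p ran from 0.016 to 0.17 over the alternatives, with 0.064 without the replicate block. Pdk3 had a change of -0.44 (adjusted p = 0.056) with groups that did not overlap, and Pdha1, the catalytic subunit these kinases act on, one of -0.12 (adjusted p = 0.32). Pdk3 passed as lower with quantile normalization (-0.67, adjusted p = 0.012) and with centring on the median (-0.50, adjusted p = 0.024). With DMSO the mean of Pdk1, at 1464 normalized counts, was far above that of Pdk2, at 100.1, and with trametinib the means were 507 and 423, closer together than their spread over the lines (SD 182 and 139). In line #3 with trametinib Pdk2, at 582, was above Pdk1, at 555. Per kilobase of transcript Pdk1 stood at 282 and Pdk2 at 44.6 with DMSO, and Pdk1 at 97.9 and Pdk2 at 189 with trametinib.

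The ratios of related genes within a library do not depend on how the libraries were scaled, apart from the 1 added to each count. In all 12 pairs examined the log2 ratio of the first-named gene to the other was higher with trametinib in 4 of 4 lines. The changes, as the mean ± SD over 4 lines, were largest for Pdk2 to Pdk1 (3.62 ± 0.71) and Eno2 to Eno1 (3.57 ± 0.46). They were 2.68 ± 1.26 for Pdk4 to Pdk1, 1.86 ± 1.19 for Slc2a3 to Slc2a1 and 1.69 ± 0.72 for Slc16a3 to Slc16a1. For Aldoc to Aldoa the change was 1.39 ± 0.35, and for Pfkp and Pfkm to Pfkl it was 0.92 ± 0.71 and 0.81 ± 0.33. The pairs were formed with earlier results of these data known, so they are a description and were not tested. In 7 of the pairs the first-named gene (Slc2a3, Slc16a3, Hk2, Pfkp, Pfkm, Aldoc or Pdk3) was not called itself, while the other gene was lower.

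**Figure D4:**
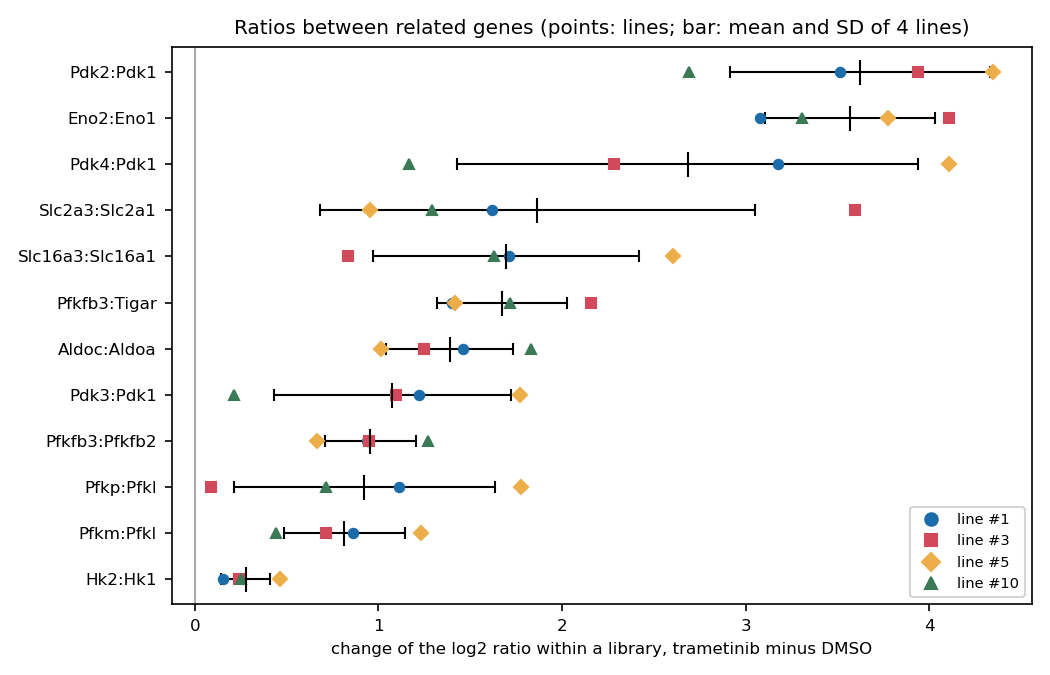
Change of the log2 ratio between 2 related members within a library, trametinib minus DMSO. Symbols are the 4 lines and the bar shows their mean and SD. Every symbol lies above 0, with the highest means for Pdk2:Pdk1 (3.62) and Eno2:Eno1 (3.57) and the lowest for Hk2:Hk1 (0.28).

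In the pentose phosphate pathway 3 of 5 members were lower and none was higher, beside 25.6% and 27.3% of all genes tested. The lower members were G6pdx and Pgd, which encode the NADPH-forming glucose-6-phosphate and phosphogluconate dehydrogenases of the cytosol, and Tkt, transketolase. H6pd of the wider list, the related dehydrogenase of the endoplasmic reticulum, named after its value was seen, rose by 0.53 (adjusted p = 0.0029, and 0.072 without the replicate block). G6pdx, on chromosome X from 74409483 to 74429194, gave 3932, 2792, 3076 and 2115 normalized counts with DMSO and 2240, 695, 1612 and 1030 with trametinib. The groups overlapped only through line #1 with trametinib, which was above line #10 with DMSO, and each line fell. G6pdx fell by 1.20 (SE 0.20, adjusted p = 0.0028), 2.29-fold, by 2.0 in line #3 and by 0.81 to 1.04 in the others. Pgd fell by 0.99 (SE 0.19, adjusted p = 0.0055) without overlap.

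In the non-oxidative branch Tkt was called, and Rpia and Taldo1 were not. Tkt fell by 0.49 (SE 0.12, adjusted p = 0.015), with adjusted p from 0.0059 to 0.13 over the alternatives and 0.070 without line #5. Rpia, ribose-5-phosphate isomerase, had a change of -0.50 (adjusted p = 0.060) that was -0.29 without line #3. It passed without line #10 (-0.65, adjusted p = 0.042), with centring on the median (adjusted p = 0.029) and with quantile normalization (adjusted p = 0.047). Taldo1, transaldolase, had one of -0.05 (adjusted p = 0.79) that changed sign with scaling to equal totals. At the entry of the hexosamine pathway, Gfpt1 had 3513 to 6786 normalized counts with DMSO and 3769 to 5071 with trametinib and was not called (log2 fold change -0.19, adjusted p = 0.16). Gfpt2, its paralog, was below the filter, and its DMSO libraries gave 7.01, 2.12, 6.30 and 2.94 normalized counts, in the order of lines used above, where the trametinib libraries gave 2.91, 2.87, 10.5 and 8.78. The groups overlapped, with a lower value under trametinib in line #1 alone, and these values rest on few reads.

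Of the 3 regulators, Hif1a was lower. Hif1a, on chromosome 12 from 73901375 to 73947530, encodes the oxygen-regulated subunit of the factor that drives many glycolytic genes. It gave 5709, 4742, 5823 and 4230 normalized counts with DMSO and 3589, 2310, 3194 and 3597 with trametinib, without overlap, and fell by 0.70 (SE 0.14, adjusted p = 0.0055). The fall was smallest in line #10, with 0.23, and largest in line #3, with 1.04. Txnip and Arrdc4 encode arrestin-like proteins that curb glucose uptake and are textbook targets of MLXIP and MLX. Txnip had a change of -0.30 (SE 0.11, adjusted p = 0.059), and Arrdc4 one of -0.02 (adjusted p = 0.95), with 0.58 in line #3 and -0.44 in line #10. With centring on the median Txnip passed as lower (-0.36, adjusted p = 0.018).

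A wider list held 107 other genes of glucose handling, of which 89 were tested. Here 30 genes were higher and 14 were lower, with a median log2 fold change of 0.18, against 27.3% and 25.6% of all genes tested and a median of 0.07. Without the replicate block 10 were higher and 7 lower, against 13.9% and 14.8% of all genes. With libraries scaled to equal totals the counts were 41 higher and 9 lower, against 33.5% and 20.7% of all genes. This list, too, was drawn up with earlier results known. Among the other transporters, Slc2a5, which carries fructose, and Slc2a8 rose by 2.88 and 1.33 (adjusted p = 0.00089 and 0.0017), and the other 4 tested were not called. Slc2a5 was scarce and uneven, with 1.68 to 99.9 normalized counts with DMSO and 29.8 to 555 with trametinib, and it did not pass without the replicate block (adjusted p = 0.12).

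Among the other glycolytic and gluconeogenic enzymes, 5 of 15 were higher and 4 lower, shares near those of all genes tested (27.3% and 25.6%). Without the replicate block none of them was higher and 2 were lower, against 13.9% and 14.8% of all genes tested. Fbp2, a fructose bisphosphatase, fell by 1.86 (adjusted p = 0.0051). Eno3, the third enolase, rose by 0.84 (adjusted p = 0.0025) and Bpgm, bisphosphoglycerate mutase, by 0.77 (adjusted p = 0.0053), both only with the replicate block (adjusted p = 0.12 and 0.14 without it). Eno3, at 711 to 2429 normalized counts with DMSO, was more abundant than Eno2. Among other genes of pyruvate and lactate handling 3 of 11 were lower, a share near the 25.6% of all genes tested, and none was higher. They were Pdp1 (-1.28, adjusted p = 0.021) and Pdp2 (-0.61, adjusted p = 0.042), the phosphatases that oppose the Pdk enzymes, and Dld (-0.42, adjusted p = 0.013), a subunit of the complex. Without line #3 the changes of Pdp1 and Pdp2 were -0.83 and -0.35, and both were still called. Pdp1 was not called without line #1 (adjusted p = 0.068), nor was Pdp2 without line #1 or #10 (adjusted p = 0.093 and 0.079). Without the replicate block Pdp2 and Dld were not called (adjusted p = 0.13 and 0.054).

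Of 8 other pentose phosphate genes 2 were higher and 2 lower, close to the shares of all genes (27.3% and 25.6%). Downstream of the pathway, Prps1 and Prps2, which make the ribose donor of nucleotide synthesis, fell by 1.65 and 0.72 (adjusted p = 0.00049 and 0.0035), both without overlap. Shpk, sedoheptulokinase, rose by 1.81 (adjusted p = 0.0011), with 29.7 to 57.2 normalized counts with DMSO and 122 to 281 with trametinib. Of the 10 other hexosamine and O-GlcNAc genes 6 were higher, against 27.3% of all genes tested, and none was lower, and without the replicate block 4 were higher, against 13.9%. Gnpda1, which returns glucosamine 6-phosphate to glycolysis, rose by 1.47 (adjusted p = 0.00060), without overlap. Amdhd2 and Nagk, which recycle N-acetylglucosamine, rose by 0.99 and 0.96 (adjusted p = 0.0089 and 0.0014). Of 11 glycogen genes 3 were higher and 2 lower, with 27.3% and 25.6% among all genes tested. Pygb, a glycogen phosphorylase, rose by 0.59 (adjusted p = 0.0083, and 0.067 without the replicate block), and Pgm2l1, a phosphoglucomutase relative, fell by 1.12 (adjusted p = 0.0012).

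Among 12 other regulators 3 were higher, no larger a share than the 27.3% of all genes tested, and 1 was lower, against 25.6%. Myc, the transcription factor known to drive glycolytic and nucleotide genes, gave 9547, 6413, 11238 and 8084 normalized counts with DMSO and 5085, 3036, 5652 and 3917 with trametinib. It fell by 1.01 (SE 0.08, adjusted p = 0.00031) without overlap. Mycn, its paralog, rose by 1.6 (adjusted p = 0.0034), with 67.9 to 280 normalized counts with DMSO and 293 to 925 with trametinib. Epas1, which encodes HIF2A, rose by 0.72 (adjusted p = 0.018), but not without the replicate block (adjusted p = 0.42) or without line #1 (adjusted p = 0.065) or line #5 (adjusted p = 0.0502). Arnt, the partner of both HIF subunits, rose by 0.27 (adjusted p = 0.035) and was not called without the replicate block (adjusted p = 0.12) or without line #1, #5 or #10 (adjusted p = 0.11, 0.0502 and 0.15). Mlxip, Mlx and Egln3 had changes of 0.15, -0.11 and -0.11 and were not called (adjusted p = 0.19, 0.35 and 0.65).

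Of 16 hypoxia-responsive genes outside glycolysis 9 were higher and 2 were lower, against 27.3% and 25.6% of all genes tested. Vegfa, the angiogenic growth factor, gave 1918, 2632, 1794 and 1877 normalized counts with DMSO and 8292, 15523, 7789 and 6219 with trametinib. It rose by 2.13 (SE 0.14, adjusted p = 0.00020) without overlap, and line #3, lowest in most glycolytic members, was the highest here. Ddit4, which restrains mTORC1, and Bnip3, a mitophagy receptor, rose by 1.49 and 0.97 (adjusted p = 0.0054 and 0.037), and neither passed without the replicate block (adjusted p = 0.11 and 0.070). Bnip3 was lower in line #3, with 510 against 420 normalized counts, and was not called without line #1, #5 or #10 (adjusted p = 0.14, 0.10 and 0.12). Car9, which encodes carbonic anhydrase IX, rose by 0.77 (adjusted p = 0.031) at 17.5 to 105 normalized counts. It was not called without line #1, #3 or #5 (adjusted p = 0.12, 0.062 and 0.092) and had an adjusted p of 0.32 without the replicate block. Without the block, 2 genes of this group were higher and none was lower, against 13.9% and 14.8% of all genes.

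**Figure D5:**
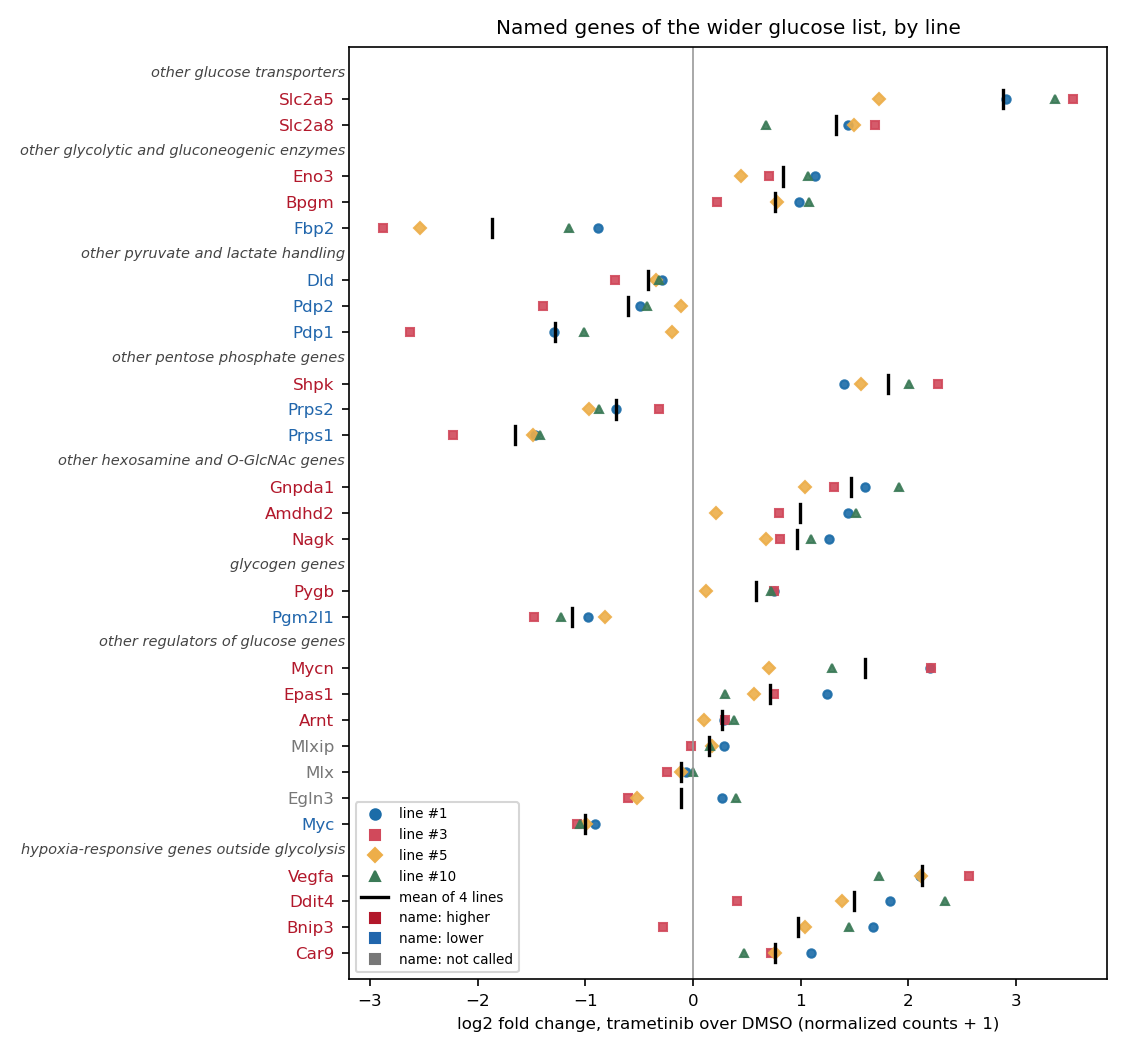
Log2 fold change (trametinib over DMSO, normalized counts plus 1) of the named genes of the wider list, in groups by role, with 1 symbol per line and a bar at the mean of the 4 lines. Slc2a5 and Vegfa lie farthest to the right, with means of 2.88 and 2.13, and Fbp2 and Prps1 farthest to the left, with -1.86 and -1.65.

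Some members share sequence with other genes, which limits how reads can be assigned. At 95% identity over at least 200 bases, 10 of the 40 members matched transcripts of at least 1 other gene. Gapdh matched 77, of which 75 were pseudogenes, and the 73 of them in the table held 16.8% to 23.1% as many normalized counts as Gapdh. The copies of Pgk1 held 6.81% to 11.8% and that of Pgam1 1.69% to 6.01%. The copy of Ldhb held 0% to 70.3%, at values of Ldhb near the floor. When members and copies were summed, an alternative added after the data were seen, 19 members were lower and 4 higher, as before, and Gapdh, Pgk1 and Pgam1 were still called. Exons of 5 members overlap those of another gene on the same strand and of 13 members on the opposite strand.

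The libraries held 30680091 to 36385719 normalized counts, from an estimated 29300000 to 46000000 reads. Ductal markers were abundant (Krt7, Krt8, Krt18, Krt19 and Cdh1), although Epcam was listed at 0 in 6 of 8 libraries. They summed to 222234 to 350363 normalized counts with DMSO and 114056 to 222637 with trametinib, and 5 of the 7 tested were lower and 1 was higher, against 25.6% and 27.3% of all genes tested. In each of these 6 the groups overlapped. Without the replicate block none of the 7 was called, where 13.9% of all genes tested were higher and 14.8% lower. Fibroblast markers summed to 94.9 to 366 with DMSO and 440 to 1258 with trametinib, where 1 of 5 tested, Col1a1, was higher and Lum was at 0. Leukocyte markers summed to 150.1 to 241 with DMSO and 236 to 516 with trametinib (1 of 4 tested higher, Csf1r). Endothelial markers summed to 30.9 to 55.4 and 62.7 to 831 (1 of 3 tested higher, Tek). Acinar markers summed to 40.3 to 252 with DMSO and 19.4 to 128 with trametinib, with Cpa1 at 0. The only one tested, Cela1, was lower (-0.73, adjusted p = 0.026, and 0.52 without the replicate block). The part of these changes in the results above was not tested.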

How the data were processed

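RNA from 4 PDAC lines, each with DMSO or trametinib, was made into stranded mRNA libraries and sequenced as paired reads of 100 bases. The authors deposited a signal, normalized counts per gene symbol. Their processing notes list mm10, CASAVA 2.17, Salmon 0.12 and DESeq2 1.18, without roles or order. Whole reads could not be recovered, since 40.8% to 62.7% of low values lay within 0.02 steps of a whole multiple, so no count test was run. Genes averaging 10 or more (15888) were tested as log2(value + 1) with limma 3.58.1 (R 4.3.3; lmFit and eBayes with trend, cell line as block, Benjamini-Hochberg adjustment over all genes tested, threshold 0.05). A fold change is on that scale and understates the change of low genes.

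Libraries are paired because both carry the number of the same line, and same-line deviations from the group means correlated at 0.66 on average (0.63 to 0.72). That the lines came from separate mice is not stated in the sources used here, so p-values measure the spread between these 4 lines. The members, lists, pairs and motifs were chosen with earlier results of these data known. All 40 members could be named, with values in every library for the called member with the largest change in each role group and for members that moved by over 0.5 in both directions. Of the wider list, the 3 called genes with the largest change per group, 7 regulators or readouts, Dusp6 and Etv4 were named. The values of other members were added after they were seen. An allele of the mouse model and 1 gene of the wider list are not reported here. Of the 113 symbols written for the wider list, 6 were not found in the table.

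Alternatives were pseudocounts of 0.1 and 5, equal totals (with and without the members), quantile normalization, centring on the median, no filter, a filter at 50, no block, eBayes without trend or with robust estimation, leaving out each line, and summing members with near-identical copies. On simulated data the fit recovered 86 of 95 genes changed by 1 and 95 of 96 changed by 2 (log2) among 15912, and called 3 unchanged genes. The simulation gave all genes the same noise setting and each changed gene the same change in every line. It also changed few genes, while 53.0% of the genes tested were called here. It therefore checks that the fit runs correctly and does not give the recovery or the false calls in these data. Positions are from GENCODE M21 (GRCm38), copies from blastn 2.17.0 and promoters from RefSeq. Tables were handled in Python 3.11.15 with pandas 2.3.3 and numpy 2.4.6, and plots drawn with matplotlib 3.10.9. The value of 3 reads, 2.33 to 3.72 normalized counts, was the smallest amount read as detected, and covers counting error only.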

Additional observations from a re-analysis of the deposited data

Results flagged for a closer look

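Of 128 groups of 4 values examined, 6 held 1 value far from the other 3, where chance gives about 6.4. The groups were the normalized counts with DMSO, those with trametinib and the changes per line of the 38 members tested, the changes of the 12 ratios, and the members' share of all counts with DMSO and with trametinib. Slc2a3 with trametinib was at 164 normalized counts in line #3, above 7.99 to 26.2 elsewhere. Slc16a1 with trametinib was at 4466 in line #10, above the 3326 to 3511 of the other lines. Aldoa with DMSO was at 22589 in line #5, above 18740 to 19167 elsewhere. Pfkfb2 with DMSO was at 584 in line #1, below 782 to 798 elsewhere. The log2 fold change of Pfkp was -1.11 in line #3 and 0.42 to 0.62 in the others, and that of Ldha was -2.44 in line #3 and -1.27 to -1.05 in the others.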

How the results depend on the processing

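Of the 23 members called, 17 kept direction and call under all 16 alternatives, 6 (Hk1, Tpi1, Tigar, Pgk1, Pdk4 and Tkt) lost the call under at least 1, and none reversed. Of the 15 not called, 7 (Slc16a3, Pfkp, Aldoc, Pfkfb2, Pdk3, Rpia and Txnip) passed under at least 1 alternative and 8 changed sign. The count of lower members ran from 16 to 22 and that of higher members from 3 to 7. The 7 came without line #3, where 26.7% of all genes tested were higher, against 27.3% with all lines. The 22 came with centring on the median, where more of all genes were also lower than as deposited. The 16 came without the block and without line #5, where fewer of all genes were lower. Leaving out a line gave 16 to 20 lower and 3 to 7 higher members. Calls over all genes were then fewer in both directions, whichever line was left out. Equal totals moved the median of all genes by 0.13 and equal totals without the members by 0.12 (log2). Without the replicate block 3 members were higher and 16 lower, against 13.9% and 14.8% of all genes tested (2205 and 2347 genes). In the wider list 10 were higher and 7 lower. With equal totals 5315 genes were higher and 3284 lower, against 4341 and 4075 as deposited, and 9 genes of the wider list were lower. Some changes near 0 reversed, none of them called as deposited. With equal totals, and with equal totals without the members, these were Hk2 (0.028 and 0.018), Taldo1 (0.082 and 0.073), Arrdc4 (0.11 and 0.10), Mlx (0.021 and 0.011) and Egln3 (0.014 and 0.0046), and with equal totals Pdha1 (0.0066). With quantile normalization they were Hk2 (0.037), Pfkfb4 (-0.020), Pdha1 (0.019) and Taldo1 (0.072), and with centring Pfkm (-0.038). Leaving out each line in turn gave ranges on both sides of 0 for Slc16a3 (-0.063 to 0.55), Hk2 (-0.16 to 0.0082), Pfkm (-0.088 to 0.19), Pfkp (-0.033 to 0.55), Taldo1 (-0.15 to 0.10), Arrdc4 (-0.22 to 0.12) and Egln3 (-0.28 to 0.049), of which Slc16a3 and Pfkp passed as higher without line #3. The cause was not tested. At this depth members below about 3 reads, such as Ldhb with DMSO, could not be measured.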
